A study of Mus musculus with 6 samples.

Results

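Klf2, Klf3, Ccr7 and S1pr1 were examined in T cells of the gut epithelium, called intraepithelial lymphocytes (IEL). All probe sets whose platform gene symbol was one of these names were taken, whatever their values. The genes themselves were chosen with earlier results of these data known. The choice gave 4 genes and 6 probe sets, out of 12488 probe sets on the Affymetrix array, whose single symbols named 8252 genes. Klf2 had 1 probe set (96109_at), Klf3 had 2 (100010_at and 100011_at), Ccr7 had 1 (104443_at) and S1pr1 had 2 (101953_at and 161788_f_at). The suffix of 161788_f_at marks, in Affymetrix naming, probes that may also match related sequences. No probe set listed one of these genes beside another symbol.

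Total RNA was measured in 3 IEL subsets of the small intestine of C57BL/6 mice under 8 weeks of age, untreated and sorted directly after isolation. The subsets were TCRab CD8aa (an alpha beta T cell receptor with the CD8 alpha alpha homodimer), TCRab CD8ab (the same receptor type with the CD8 alpha beta heterodimer) and TCRgd CD8aa (a gamma delta receptor with CD8 alpha alpha). All 3 were sorted from 1 pool of 20 mice, and the whole experiment was repeated once with a new pool, so each subset had 2 arrays. The source names give the third subset as TCRgd, while its titles spell it TCRgb. No mouse was measured alone, so no p-value describes the spread between mice. In a fit without the experiment as a block, p-values rest on the spread between pools. With the experiment as a block, they rest on how far the subset differences varied between the experiments.

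Klf2 is a zinc finger transcription factor that is kept high in resting T cells and is needed there for transcription of S1pr1. S1pr1, the receptor for sphingosine 1-phosphate, lets T cells leave the thymus and lymph nodes, and Ccr7, the receptor for the chemokines Ccl19 and Ccl21, brings them into lymph nodes. Signalling from the T cell receptor lowers Klf2, and T cells that settle in tissues are known for low Klf2 and S1pr1. Klf3 is a member of the same family that acts mainly as a repressor, binds CACCC elements and recruits C-terminal binding proteins.

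The promoters of both Klf genes are shown because the values turn on these genes and because Klf proteins bind CACCC, so that the windows show where such letters lie. RefSeq (GRCm38.p6) gave a window for 2 of the 4 genes, and the 250 bases upstream of the start are printed for each. Capitals mark CACCC or its reverse complement GGGTG, the FOXO element GTAAACA or TGTTTAC, and the MEF2 consensus, all searched on both strands. None of these motifs overlapped another.
Klf2 promoter, plus strand, chr8:72318812-72319061: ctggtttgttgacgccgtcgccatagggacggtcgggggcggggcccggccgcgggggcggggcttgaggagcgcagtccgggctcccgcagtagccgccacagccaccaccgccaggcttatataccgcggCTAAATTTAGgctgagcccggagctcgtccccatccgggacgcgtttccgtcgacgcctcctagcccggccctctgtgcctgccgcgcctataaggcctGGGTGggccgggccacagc
Klf3 promoter, plus strand, chr5:64803271-64803520: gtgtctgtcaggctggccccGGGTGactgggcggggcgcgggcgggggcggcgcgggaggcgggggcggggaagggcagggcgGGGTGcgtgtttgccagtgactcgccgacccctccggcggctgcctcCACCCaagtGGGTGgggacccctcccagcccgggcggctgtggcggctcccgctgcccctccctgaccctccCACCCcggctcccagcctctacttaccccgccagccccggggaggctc
The Klf2 window held 1 CACCC element, read as GGGTG, at 19 to 15 bases before the start, and 1 match to the MEF2 consensus, CTAAATTTAG, at 118 to 109 bases before it. The Klf3 window held 5 CACCC elements, the farthest at 230 to 226 and the nearest at 48 to 44 bases before the start. Neither window held GTAAACA. Among 32851 windows of the same length, 52.0% held at least 1 CACCC element, 0.667% held at least 5, 0.508% held the MEF2 consensus and 3.17% held GTAAACA. Both windows were rich in G and C, at 71.2% for Klf2 and 78.4% for Klf3, against a median of 52.4% over all windows.

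The labels were set against marker genes first. Cd3g, a chain of the T cell receptor complex, gave signals of 7597 to 27660 on the 6 arrays. Cd8b1, which encodes the CD8 beta chain, gave 17650 and 27590 on the TCRab CD8ab arrays and 28.1 to 763 on the other 4. Enterocyte markers (9 genes, 11 probe sets) summed to 25050 on the TCRgd CD8aa array of experiment 2 and to 732 to 2195 on the other 5, and every one of the 11 probe sets was highest on that array within its experiment. The 3′ to 5′ ratio of the actin control probe sets, which rises as RNA is degraded or poorly amplified, was 1.41 to 1.76 on the arrays of experiment 1 and 40.4 to 52.2 on those of experiment 2. All arrays had been scaled by the authors to the same trimmed mean, and the median signal was 83.4 to 113.

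Klf2 gave a signal of 1038 in experiment 1 and 246 in experiment 2 in TCRab CD8ab IEL. Its signal was 36.3 and 11.6 in TCRab CD8aa IEL, and 17.1 and 12.8 in TCRgd CD8aa IEL. Both TCRab CD8ab arrays lay above all 4 arrays of the CD8aa subsets, and Klf2 passed the filter on dim probe sets only through them. The filter asked for at least 2 arrays above a signal of 56.4, and signals under 15.3 were set to that floor, which held for 2 of the CD8aa arrays. On the log2 scale, with the floor, Klf2 was 8.98 ± 1.47 (SD, n = 2) in TCRab CD8ab, 4.56 ± 0.88 in TCRab CD8aa and 4.02 ± 0.11 in TCRgd CD8aa IEL.

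Klf3 was measured by 2 probe sets. With 100010_at its signal was 511 and 326 in TCRab CD8ab IEL, 61.0 and 2.9 in TCRab CD8aa IEL, and 65.1 and 66.0 in TCRgd CD8aa IEL. With 100011_at its signal was 879 and 266 in TCRab CD8ab IEL, 85.5 and 41.1 in TCRab CD8aa IEL, and 99.3 and 83.7 in TCRgd CD8aa IEL. Both probe sets put the TCRab CD8ab arrays above the other 4, with no overlap, and put the TCRab CD8aa array of experiment 2 lowest. The log2 means of 100010_at were 8.67 ± 0.46, 4.93 ± 1.41 and 6.03 ± 0.01 (SD, n = 2) in TCRab CD8ab, TCRab CD8aa and TCRgd CD8aa IEL. Those of 100011_at were 8.92 ± 1.22, 5.89 ± 0.75 and 6.51 ± 0.17. Unlike Klf2, Klf3 stayed above the floor with both probe sets in both experiments in TCRgd CD8aa IEL.

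Ccr7 gave a signal of 2579 in TCRab CD8ab IEL of experiment 1 and of 49.6 in the same subset of experiment 2. The other 4 arrays gave 20.0 and 4.4 in TCRab CD8aa and 19.1 and 6.9 in TCRgd CD8aa IEL. Both TCRab CD8ab arrays were therefore the highest of their experiment, but only 1 array passed the filter signal and Ccr7 was not tested. Within TCRab CD8ab IEL, Ccr7 was 52.0-fold lower in experiment 2 than in experiment 1, against 4.22-fold for Klf2, 1.57-fold and 3.30-fold for the Klf3 probe sets, and 1.31-fold and 4.29-fold for the S1pr1 probe sets. The 3′ to 5′ ratios given above differed between the same arrays, and their part in this was not tested. Ccr7 is also known in B cells and dendritic cells. On the TCRab CD8ab array of experiment 1, 8 probe sets of B cell markers summed to 782, where the other 2 arrays of that experiment gave 791 and 980. On the TCRab CD8ab array of experiment 2 they summed to 1612, where the other 2 gave 813 and 1351. Of the 8 probe sets, 7 were highest on the TCRab CD8ab array in experiment 2 and 1 in experiment 1. The exception in experiment 2 was Cd79b. It gave 423 and 519 in TCRab CD8ab, 429 and 500 in TCRab CD8aa and 629 and 744 in TCRgd CD8aa IEL. Dendritic cell markers summed to 1342 and 1864 on the TCRab CD8ab arrays, within the 1331 to 2853 of all 6. The part of either cell type in the Ccr7 signal was not tested.

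S1pr1 was dim with both probe sets. With 101953_at the signal was 31.2 and 23.8 in TCRab CD8ab IEL, 3.7 and 1.4 in TCRab CD8aa IEL, and 1.6 and 38.8 in TCRgd CD8aa IEL. With 161788_f_at it was 125 and 29.0 in TCRab CD8ab IEL, 29.7 and 50.4 in TCRab CD8aa IEL, and 23.8 and 51.2 in TCRgd CD8aa IEL. The probe sets agreed that TCRab CD8ab IEL were highest in experiment 1 and that TCRgd CD8aa IEL were highest in experiment 2. No S1pr1 probe set had 2 arrays above the filter signal, and neither was tested. S1pr1 is bright in endothelial cells, and 9 probe sets of endothelial markers summed to 507 and 429 in TCRab CD8ab, 355 and 351 in TCRab CD8aa and 412 and 397 in TCRgd CD8aa IEL. The sum was thus highest in TCRab CD8ab IEL in both experiments. The array with 507 was also the one where 161788_f_at of S1pr1 was brightest. Eng gave 254 and 138 in TCRab CD8ab, 120 and 84.9 in TCRab CD8aa and 159 and 42.8 in TCRgd CD8aa IEL. Pecam1 went the other way, with 130 and 124, 181 and 190, and 141 and 198 in the same order of subsets. Cdh5, a defining marker, gave 3.7 to 34.8 over the 6 arrays. Klf2, like the sum of the endothelial markers, was highest in TCRab CD8ab IEL in both experiments. The part of endothelial cells in the signals of S1pr1 and Klf2 was not tested. The TCRgd CD8aa array of experiment 2, where S1pr1 was highest in its experiment, was the array with the high enterocyte signal, whose part was not tested.

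**Figure D1:**
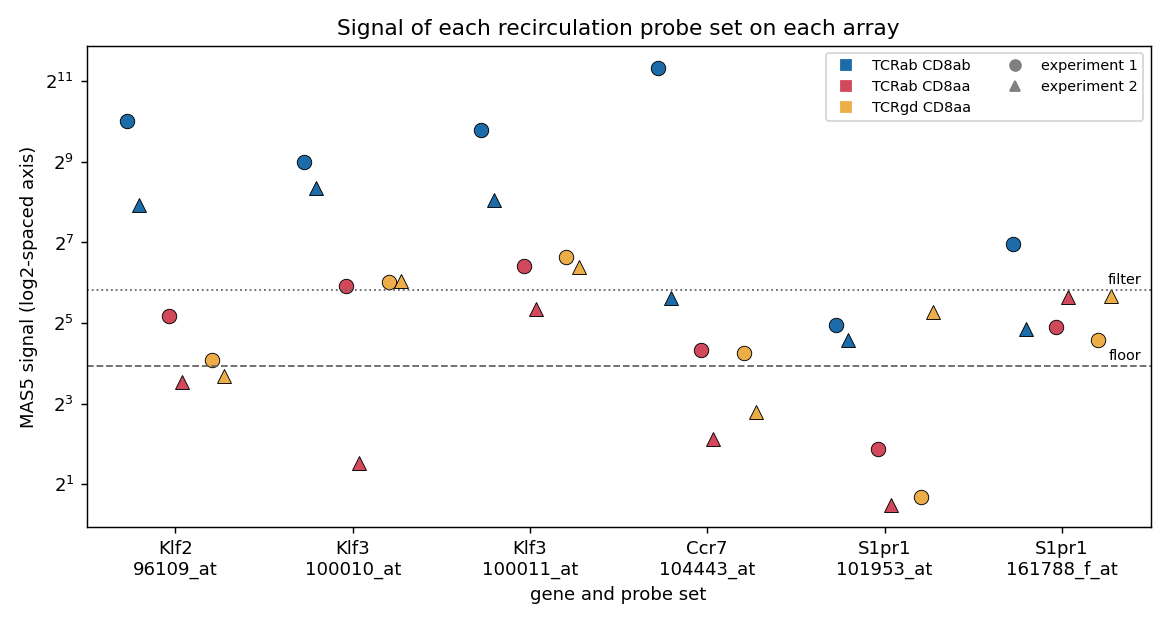
MAS5 signal on a log2-spaced axis for each of the 6 probe sets, 1 point per array, coloured by subset, with circles for experiment 1 and triangles for experiment 2; the dashed line is the floor (15.3) and the dotted line the filter signal (56.4). The blue TCRab CD8ab points lie above the other 4 for Klf2, Klf3 and Ccr7, while for S1pr1 they overlap with those of at least 1 other subset.

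For Klf2, both probe sets of Klf3 and Ccr7, the order of the subsets began with TCRab CD8ab in both experiments. No difference between the CD8aa subsets passed the test. Klf2 was 0.54 lower and Klf3 was 1.10 (100010_at) and 0.62 (100011_at) higher in TCRgd CD8aa than in TCRab CD8aa IEL on the log2 scale, with standard errors of 0.70, 0.62 and 0.51 and limma adjusted p = 1.0 with the experiment as a block. For S1pr1, TCRab CD8ab IEL lay above TCRab CD8aa IEL in both experiments with 101953_at, and no other order of TCRab CD8ab IEL against a CD8aa subset held in both. The levels of different probe sets cannot be set against each other, since probes differ in brightness.

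Setting TCRab CD8aa against TCRab CD8ab IEL asks how the type of CD8 goes with these genes in cells of the same receptor type. The arrays did not overlap for 5 of the 6 probe sets, TCRab CD8aa being the lower in each, where 16.1% of all 12422 probe sets other than controls did so. The exception was 161788_f_at of S1pr1. Klf2 was 28.6-fold lower in experiment 1 and at least 16.1-fold lower in experiment 2, where the CD8aa signal lay under the floor. Klf3 was 8.38-fold and at least 21.3-fold lower with 100010_at, and 10.3-fold and 6.48-fold lower with 100011_at. In bulk RNA, fewer cells that express a gene and less of its RNA in each cell cannot be told apart.

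No member passed in the fit without a block, in which 0 of 8299 probe sets (0%) passed at a limma adjusted p under 0.05 and 187 had an unadjusted p under 0.05. The adjusted p was 0.659 for Klf2 and 0.714 and 1.0 for the Klf3 probe sets. Since all subsets of an experiment came from 1 pool, the fit with the experiment as a block is given beside it. There, 3 of the 3 member probe sets tested were called lower, against 25 of all 8299 (0.301%), or 68 in either direction (0.819%). The log2 difference was −4.42 ± 0.70 (SE) for Klf2 with an adjusted p of 0.0249, −3.74 ± 0.62 for 100010_at of Klf3 with 0.0288, and −3.03 ± 0.51 for 100011_at with 0.0313. They ranked 43, 49 and 53 by p among the 8299. Klf2 had passed the filter only through the TCRab CD8ab arrays, so its place among the tested probe sets already rested on the difference. The others called both measure Klf3, and the genes were chosen with earlier results known. The count is therefore no evidence beside the share of all probe sets.

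The calls depended on single arrays. With the block and without the TCRab CD8aa array of experiment 1, the limma adjusted p was 0.0912 for Klf2, 0.0219 for 100010_at and 0.157 for 100011_at. Without that of experiment 2, it was 0.0721, 0.183 and 0.149. Without the TCRab CD8ab array of experiment 1 it was 0.0568 and 0.0808 for the Klf3 probe sets, and without that of experiment 2 it was 0.170 and 0.0453, and Klf2 no longer passed the filter in either case. In all of these fits the differences stayed negative. When no filter on dim probe sets was applied, 0 of 12422 were called by limma with the block (922 at an unadjusted p under 0.05), and the adjusted p was 0.522 for Klf2 and 0.570 and 0.554 for Klf3.

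Ccr7 and 101953_at of S1pr1 could be fitted only without the filter, and 161788_f_at of S1pr1 only in 2 of the alternative settings. Ccr7 was 129-fold lower in TCRab CD8aa than in TCRab CD8ab IEL in experiment 1 and at least 3.24-fold lower in experiment 2. The mean log2 difference of Ccr7, −4.35 ± 1.80 (SE), had a limma adjusted p of 0.736 with the block and 1.0 without it. For S1pr1 the difference with 101953_at was −0.83 ± 0.53 with an adjusted p of 0.740 in the blocked fit. With 161788_f_at S1pr1 was lower in TCRab CD8aa IEL by 2.07 on the log2 scale in experiment 1 and higher by 0.80 in experiment 2. Neither of these genes passed the test, and for S1pr1 the direction with 161788_f_at differed between the experiments.

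TCRgd CD8aa and TCRab CD8ab IEL differ in receptor type and in CD8 together, and the comparison uses the same TCRab CD8ab arrays as the one before. The arrays did not overlap for 4 of the 6 probe sets, those of Klf2, Klf3 and Ccr7, with TCRgd CD8aa lower in each, where 11.8% of the 12422 did so. Klf2 was 60.7-fold lower in experiment 1 and at least 16.1-fold lower in experiment 2. In the fit without a block 0 of 8299 (0%) passed in limma (168 at an unadjusted p under 0.05), and the adjusted p of Klf2 was 0.676. With the block, 1 of the 3 member probe sets tested was called lower, against 18 of 8299 (0.217%), or 46 in either direction (0.554%). It was Klf2, with a log2 difference of −4.96 ± 0.70 (SE) and an adjusted p of 0.0168 and rank 26 by p. As above, Klf2 was tested only because of the TCRab CD8ab arrays, so this count is no evidence beside the share of all probe sets.

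Klf3 was lower in TCRgd CD8aa than in TCRab CD8ab IEL in both experiments but did not pass. Its log2 difference was −2.64 ± 0.62 (SE) with 100010_at and −2.41 ± 0.51 with 100011_at, with limma adjusted p of 0.168 and 0.118 in the blocked fit. The folds were 7.85 and 4.94 with the former, and 8.85 and 3.18 with the latter, in experiments 1 and 2. Without the TCRgd CD8aa array of experiment 2, which carried the enterocyte signal, the log2 differences were −3.31 and −2.98 for Klf3 and −5.715 for Klf2. Without that of experiment 1 they were −1.97, −1.84 and −4.21. Each of these fits left a single array of the subset. Without the TCRab CD8ab array of experiment 1 or 2, the Klf3 differences were −2.81 and −1.87, or −2.47 and −2.94. Without the TCRab CD8aa array of experiment 2 they stayed at −2.64 and −2.41. Whether Klf3 was called changed with the array left out. Without either TCRab CD8ab array Klf2 did not pass the filter. Klf2 was also not called when no filter was set, at an adjusted p of 0.516. Whether Klf3 differed less than Klf2 was not tested.

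Ccr7 was 135-fold lower in TCRgd CD8aa than in TCRab CD8ab IEL in experiment 1 and at least 3.24-fold lower in experiment 2, with a limma adjusted p of 0.731 in the blocked fit without a filter. S1pr1 was lower in TCRgd CD8aa IEL in experiment 1, by 1.03 (101953_at) and 2.39 (161788_f_at) on the log2 scale, and higher in experiment 2, by 0.71 and 0.82. The sign turned between the experiments with both probe sets of S1pr1. Between the CD8aa subsets, limma called 0 of the 3 member probe sets tested with the block, where 2 of 8299 (0.0241%) were called and 172 had an unadjusted p under 0.05, and 0 without it, where 0 of 8299 (0%) were called and 34 had such a p.

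**Figure D2:**
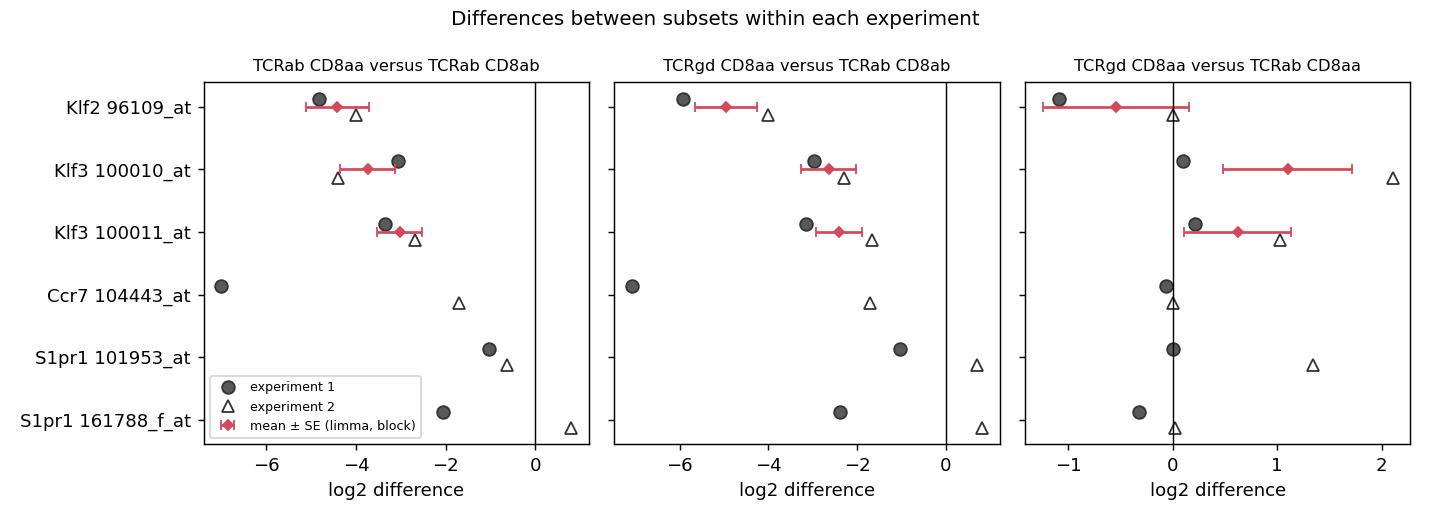
Log2 difference of each probe set in the 3 comparisons, with filled circles for experiment 1, open triangles for experiment 2 and, for the 3 probe sets tested, the mean ± SE of the limma fit with the experiment as a block in red. Klf2 and Klf3 lie between −1.67 and −5.92 in the first 2 panels in both experiments, Ccr7 lies at −7.01 and −7.08 in experiment 1 and at −1.70 in experiment 2, and the S1pr1 points fall on both sides of 0.

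Genes that act with the members were described by lists of related genes. In the Klf family beyond the members, 8 genes with 11 probe sets were tested and 0 were called in either fit in any comparison, with a median log2 difference of −0.28 for TCRab CD8aa and −0.16 for TCRgd CD8aa against TCRab CD8ab IEL, where all probe sets tested had medians of −0.08 and −0.06. Klf4, known for restraining proliferation in CD8 T cells, gave 954 and 1803 in TCRab CD8ab, 1413 and 4153 in TCRab CD8aa and 1272 and 5427 in TCRgd CD8aa IEL. Klf4 was thus lowest in TCRab CD8ab IEL in both experiments, in the other direction from Klf2, with a limma adjusted p of 0.436 and 0.426 with the block. The 5427 came from the TCRgd CD8aa array with the high enterocyte signal, whose part was not tested. Klf5, named here after its values were seen, did not pass the filter. It gave 503 on that array and 7.2 to 54.0 on the others. Klf13, a family member expressed in T cells, gave 1522 and 182, 1204 and 35.3, and 1472 and 65.1 in the same order of subsets with 160617_at, with adjusted p of 0.419 and 0.724. Its other probe set, 103369_at, gave 962 and 983, 1304 and 537, and 900 and 534, and there TCRab CD8aa lay above TCRab CD8ab IEL in experiment 1.

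Genes upstream of Klf2, in the phosphoinositide 3-kinase, Akt and FOXO route and the MEF2 route, had 14 probe sets of 11 genes tested, of which 0 were called, with medians of 0.21 and 0.05. Foxo1 had no probe set under its symbol. Pik3cd, a catalytic subunit of phosphoinositide 3-kinase, gave 173 and 133 in TCRab CD8ab, 125 and 12.9 in TCRab CD8aa and 350 and 97.8 in TCRgd CD8aa IEL, with 92390_at, with a limma adjusted p of 0.420 and 0.938 with the block. The brighter probe set of Pik3cd, 103866_at, gave 1763 and 1320, 2546 and 786, and 2971 and 597, so that the differences turned sign between the experiments. Akt1, the kinase downstream of it, gave 1044 and 56.6, 991 and 93.4, and 933 and 19.4, with 0.877 and 0.720. Map3k3 of this list, named here after its values were seen, put the TCRab CD8ab arrays above those of both CD8aa subsets with 94946_at. It gave 342 and 409 in TCRab CD8ab, 233.5 and 252 in TCRab CD8aa and 233.7 and 272 in TCRgd CD8aa IEL. Its other tested probe sets, 104074_at and 94947_g_at, did not, and neither did those of the other genes tested. Of the corepressors that Klf3 recruits, Ctbp1 gave 2829 to 4918 over the 6 arrays and Ctbp2 gave 4.6 to 146. Both were tested and 0 were called.

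The list of lymph node entry and egress held 16 genes with 19 probe sets tested, and 0 were called. The median difference was −0.33 for TCRab CD8aa and −0.26 for TCRgd CD8aa against TCRab CD8ab IEL, and 9 and 12 of the 19 were lower in both experiments, where 30.1% and 28.7% of all probe sets tested were. Itgal, the integrin chain with which T cells arrest on vessel walls, gave 339 and 211 in TCRab CD8ab, 107 and 17.4 in TCRab CD8aa and 104 and 44.4 in TCRgd CD8aa IEL, with a limma adjusted p of 0.127 and 0.347 with the block. S1pr4, another sphingosine 1-phosphate receptor of lymphocytes, gave 516 and 150, 204 and 16.9, and 251 and 44.9, with 0.155 and 0.533. For both, TCRab CD8ab IEL were highest in each experiment, as for Klf2 and Klf3. Cd69 and S1pr5 had no probe set under their symbol, and neither did Ccl19 or Ccl21a.

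Enzymes and phosphatases of sphingosine 1-phosphate had 6 probe sets of 4 genes tested and 0 called, with medians of −0.21 and 0.00 for the 2 comparisons. Sgpl1, the lyase that degrades it, gave 267 and 91.8 in TCRab CD8ab, 211 and 47.9 in TCRab CD8aa and 241 and 89.2 in TCRgd CD8aa IEL with 96127_at. A dimmer probe set, 96126_at, gave 103 and 73.4, 99.3 and 25.5, and 99.1 and 53.1. Plpp1, a lipid phosphate phosphatase, gave 56.8 and 238, 36.7 and 202, and 14.0 and 280. The list of gut homing and retention genes joined genes of entry into the gut with genes of cells that stay. It had 10 probe sets of 7 genes tested and 0 called, with medians of −0.35 and −0.51. Its medians describe neither kind alone. In each comparison 6 of the 10 were lower and 2 higher in both experiments. Prdm1, named here after its values were seen, was higher in both CD8aa subsets without overlap. It gave 189 and 247 in TCRab CD8ab, 370 and 667 in TCRab CD8aa and 424 and 625 in TCRgd CD8aa IEL. Ccr9, the receptor for the gut chemokine Ccl25, gave 853 and 1131 in TCRab CD8ab, 315 and 441 in TCRab CD8aa and 548 and 503 in TCRgd CD8aa IEL. Cxcr3, a receptor for interferon-induced chemokines, gave 1634 and 1066, 443 and 375, and 592 and 435. For both receptors TCRab CD8ab IEL were above the other subsets without overlap, with a limma adjusted p of 0.138 (Ccr9) and 0.0504 (Cxcr3) for TCRab CD8aa, and 0.4995 and 0.161 for TCRgd CD8aa, in the blocked fit.

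Genes of quiescent and naive T cells, the state in which Klf2 is known to be high, had 16 probe sets of 10 genes tested. With the block 2 were called lower in TCRab CD8aa than in TCRab CD8ab IEL (0.301% of all tested) and 1 was called lower in TCRgd CD8aa IEL (0.217%), and 0 were called without the block. In the first comparison 8 of the 16 were lower and 3 higher in both experiments, and in the second 8 were lower and 2 higher. The medians of the list were −0.37 and −0.54. Il7r, the receptor for the survival cytokine interleukin 7, gave 2864 and 1280 in TCRab CD8ab, 57.8 and 91.4 in TCRab CD8aa, and 112 and 1016 in TCRgd CD8aa IEL. Il7r fell by 4.72 ± 0.80 (SE) on the log2 scale in TCRab CD8aa IEL, with a limma adjusted p of 0.0322 with the block. In TCRgd CD8aa IEL the difference of Il7r was −2.50 with an adjusted p of 0.375, and it was −4.68 in experiment 1 and −0.33 in experiment 2, the array with the enterocyte signal. Without the TCRab CD8aa array of experiment 1 or 2, or the TCRab CD8ab array of experiment 1, the adjusted p of Il7r for TCRab CD8aa was 0.05003, 0.0685 and 0.0597, and with no filter it was 0.6225.

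Satb1, a chromatin organiser of developing and naive T cells, gave 1522 and 358 in TCRab CD8ab, 216 and 75.0 in TCRab CD8aa and 148 and 90.6 in TCRgd CD8aa IEL. The TCRab CD8ab arrays were the highest 2 of the 6. Satb1 fell by 2.54 ± 0.45 (SE) in TCRab CD8aa and by 2.67 ± 0.45 in TCRgd CD8aa IEL, with limma adjusted p of 0.0397 and 0.0399 with the block. For TCRab CD8aa, the adjusted p of Satb1 was 0.199 and 0.276 without the TCRab CD8aa array of experiment 1 or 2 and 0.0828 without the TCRab CD8ab array of experiment 1. For TCRgd CD8aa it was 0.0827 and 0.0556 without the TCRab CD8ab array of experiment 1 or 2 and 0.0706 without the TCRgd CD8aa array of experiment 1. With no filter it was 0.560 and 0.585 for the 2 comparisons. The 3 probe sets higher in TCRab CD8aa IEL in both experiments were all those of Bcl2, an inhibitor of cell death, named here after its values were seen. Their log2 differences were 0.91 (98868_at), 0.87 (98869_g_at) and 1.07 (98870_at), with limma adjusted p of 0.360, 0.409 and 0.585 with the block.

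**Figure D3:**
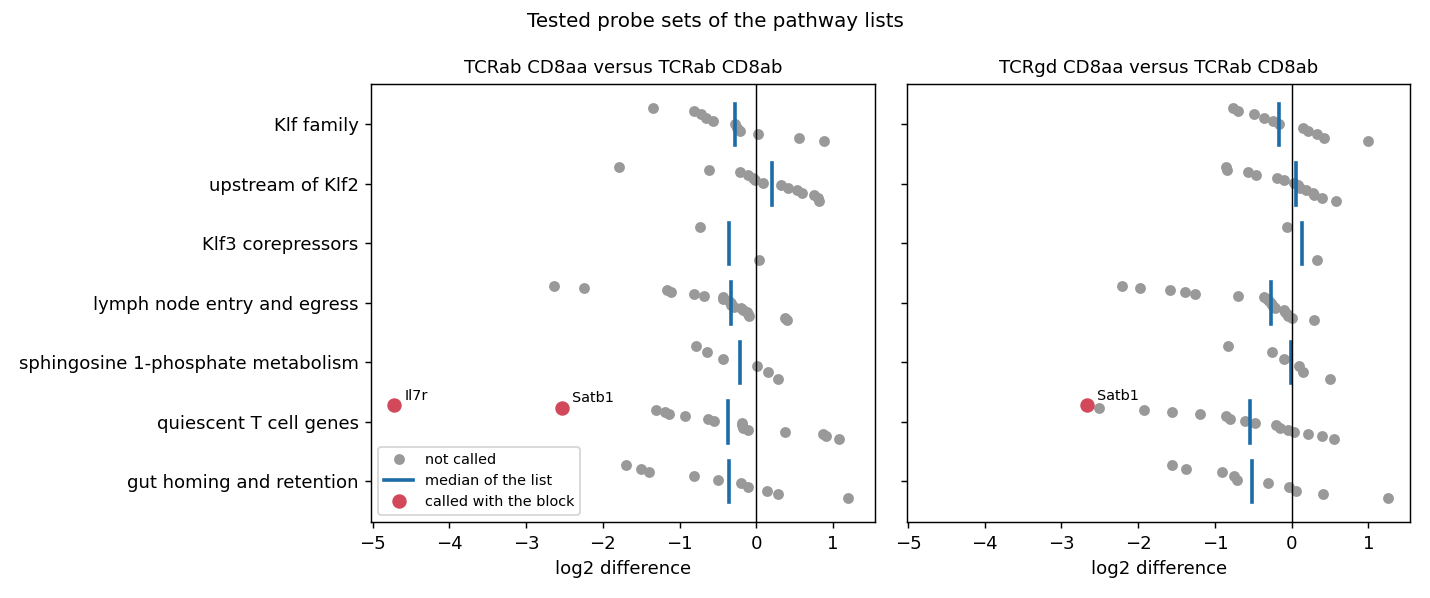
Log2 difference of each tested probe set of the 7 lists with any on the array, for TCRab CD8aa (left) and TCRgd CD8aa (right) against TCRab CD8ab IEL; blue bars are the list medians and red points the probe sets called with the experiment as a block. Il7r and Satb1 are called in the left panel and Satb1 in the right, all in the list of quiescent T cell genes, and the list medians lie between −0.54 and 0.21.

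The genes whose pattern was most like that of each tested member were found by Pearson correlation over the 6 arrays, after the mean of each experiment was subtracted. The search covered 1473 probe sets of named genes whose subset means spanned at least 1 on the log2 scale. For Klf2 they were Ramp3, Ctla4, Satb1, Gramd3 and Pclaf, with r from 0.993 to 1.000 as rounded, and 7.54% of the probe sets searched had r over 0.9. Gramd3 gave 904 and 218 in TCRab CD8ab, 39.1 and 23.3 in TCRab CD8aa and 5.8 and 17.0 in TCRgd CD8aa IEL. Ctla4, an inhibitory receptor of T cells, gave 11150 and 12120, 3967 and 4951, and 3008 and 4485. Ctla4 and Klf2 were thus both highest in TCRab CD8ab IEL in both experiments and lowest in TCRgd CD8aa IEL in experiment 1. Unlike that of Klf2, the signal of Ctla4 was not lower in experiment 2. These correlations rest on 6 arrays in 2 shared pools and are a description, and they were taken on a pattern that is mostly 1 subset against the other 2.

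For Klf3 with 100010_at the closest were AI506816, Trpv2, Kcnn4, Abhd8 and Krt12 (r 0.985 to 0.993), and with 100011_at Ms4a6b, Dgka, Rora, Cd8b1 and Nfkbia (0.996 to 1.000). The Klf3 probe sets shared none of these genes, although they correlated with each other at r = 0.959. Kcnn4, a calcium-activated potassium channel of T cells, gave 704 and 502 in TCRab CD8ab, 119 and 63.3 in TCRab CD8aa and 155 and 124 in TCRgd CD8aa IEL. Rora, a nuclear receptor, gave 2149 and 338, 201 and 68.2, and 247 and 116. Cd8b1, which the sort itself sets, was among the closest to Klf3. Among the members, Klf2 correlated at 0.898 and 0.957 with the Klf3 probe sets, at 0.912 with Ccr7, and at 0.513 and 0.557 with the S1pr1 probe sets. Without subtracting the mean of each experiment, 1 of the 5 genes was the same for Klf2 (Gramd3), 1 for 100010_at (Kcnn4) and 0 for 100011_at.

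**Figure D4:**
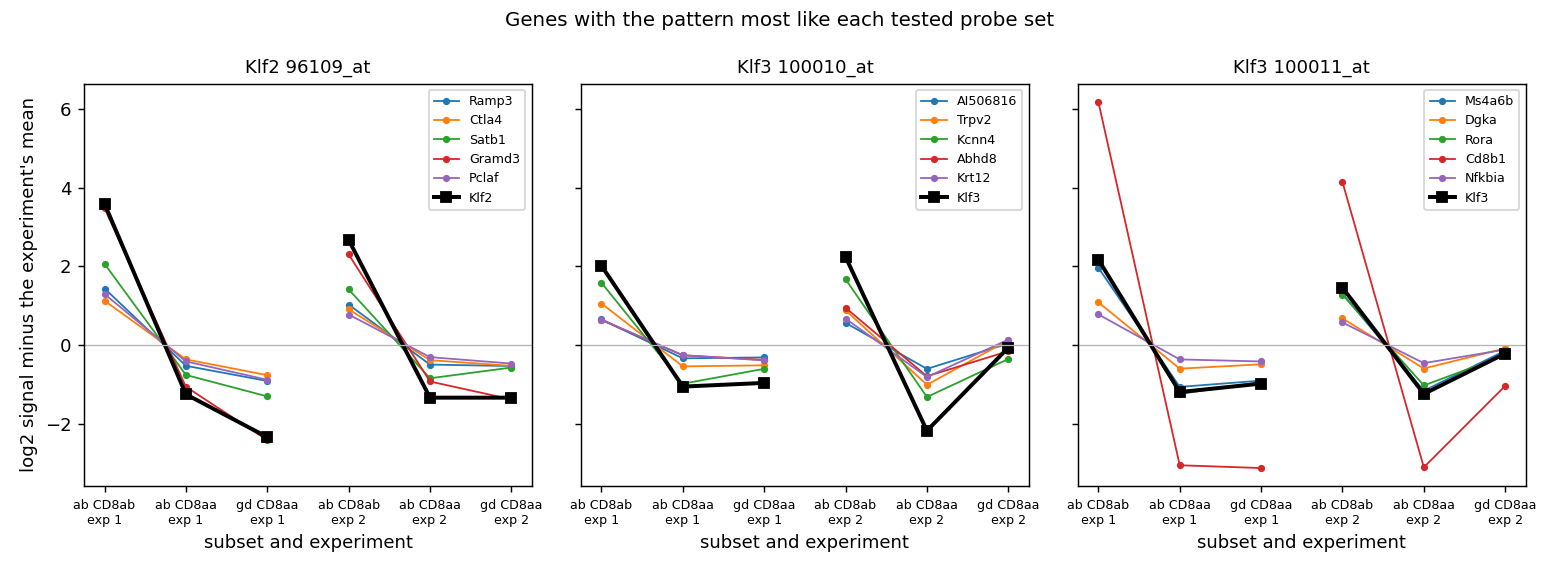
Log2 signal minus the mean of the experiment on each of the 6 arrays, for each tested member probe set (black squares) and the 5 genes most like it (coloured lines), with the 3 arrays of an experiment joined. All lines are highest in TCRab CD8ab in both experiments, and Cd8b1, in the third panel, has the widest swing.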

How the data were processed

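The submitters' processing notes name MAS5 (version not given). Per the file headers and values, the authors deposited 1 linear MAS5 signal intensity per probe set and array, scaled to a common trimmed mean. Detection calls and scanner files were not used here. Gene symbols came from the platform annotation, in which 10833 of 12488 probe sets carried 1 symbol, 396 several and 1193 none, beside 66 controls. The signal was rescaled to an equal 2% trimmed mean (factors 0.999915 to 1.00006), floored at its 20th percentile (signal 15.3, log2 3.94) and taken as log2. Probe sets with at least 2 arrays above the 40th percentile (signal 56.4) were tested, 8299 of 12422. A filter of this kind keeps a gene that is bright in 1 subset only, and MAS5 signals near the floor have large relative error.

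All 6 arrays were fitted with limma 3.58.1 (R 4.3.3; lmFit, eBayes with the intensity trend), without and with the experiment as a block, with Benjamini-Hochberg adjustment over all probe sets tested and a threshold of 0.05. Both fits were run on simulated data. There the fit without the block made no calls, and the fit with it made calls of which some were false. Which fit suits the 6 arrays better was not tested. Why the fit without the block made no calls on the 6 arrays was not tested either. The design text says that all subsets of an experiment came from 1 pool, so replicate numbers pair the arrays. Deviations from the subset means correlated between subsets at 0.618, 0.713 and 0.603. Standard errors are limma's, shared over subsets. Precision is limited by the number of arrays.

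The genes, the lists and the tests were chosen with earlier results of these data known. Named genes were the members, each list's called genes or else its 2 with the smallest p with the block, the 5 most similar per tested member, and markers. The alternatives (33 settings) changed scaling, floor, filter, trend, arrays in the fit, threshold and block, and left out each array. No 2 arrays were copies of each other. Promoter sequences are from RefSeq (GRCm38.p6).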

Additional observations from a re-analysis of the deposited data

How the results depend on the processing

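The replicate block (experiment as a term) decided whether any gene was called. For TCRab CD8aa against TCRab CD8ab IEL the members called were 0 without the block under each alternative and 3 with it, and still 3 with the block with the signal left unscaled or quantile normalized, the floor moved to the 30th percentile or replaced by adding 16, the filter moved to the 60th percentile, the 4 arrays of these subsets alone or a threshold of 0.10. They were 2 with the floor at the 10th percentile and 0 with no filter or no intensity trend. Leaving out 1 array gave 0 to 3. For TCRgd CD8aa against TCRab CD8ab IEL the count was 0 without the block, 1 with it under the same settings except 2 with the 4 arrays alone and 0 with no filter or no trend, and 0 to 3 with 1 array left out. The list genes called against TCRab CD8ab IEL with the block were 2 for TCRab CD8aa (1 with quantile normalization, 3 with 16 added, the 60th percentile filter or the 0.10 threshold, 5 with 4 arrays, 0 to 5 with 1 array left out) and 1 for TCRgd CD8aa (0 to 2). Both counts were 0 with no filter or no intensity trend. Between the CD8aa subsets, leaving out 1 array gave 0 to 3. The block changed no other call of a member or a named list gene than those given in the report. Genes of similar pattern were chosen for that pattern, so calls on them are not reported.

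Over all settings Klf2 lay between −5.05 and −3.79 for TCRab CD8aa and between −5.72 and −4.03 for TCRgd CD8aa against TCRab CD8ab IEL. With the block it passed in 11 and 13 of 15 settings in which it was tested. Klf3 lay between −4.74 and −2.74 (100010_at, past in 11 of 17) and between −3.89 and −2.17 (100011_at, 12 of 17) for TCRab CD8aa.

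Leaving out 1 array turned the sign of these uncalled differences, given as ranges of log2 differences over the arrays left out. For TCRgd CD8aa against TCRab CD8aa, Klf2 ranged from −1.29 to 0.21. For TCRab CD8aa against TCRab CD8ab, the range was −3.48 to 0.84 for Abhd8, −1.78 to 2.43 for Akt1, −0.37 to 0.43 for Ctbp1, −2.04 to 0.38 for Ctbp2, −3.33 to 0.37 for Dgka, −3.90 to 1.20 for Klf13, −1.66 to 0.80 for Plpp1 and −1.71 to 0.43 for Sgpl1. For TCRgd CD8aa against TCRab CD8ab, it was −2.84 to 0.72 for Abhd8, −3.65 to 1.94 for Akt1, −0.45 to 0.34 for Ctbp1, −0.97 to 1.96 for Ctbp2, −3.02 to 0.68 for Dgka, −3.02 to 1.48 for Klf13, −0.044 to 2.05 for Klf4, −1.89 to 0.57 for Krt12, −0.74 to 1.32 for Pik3cd, −2.93 to 1.27 for Plpp1 and −0.87 to 0.68 for Sgpl1. With the floor at the 10th percentile, Ctbp2 for TCRgd CD8aa was −0.13 with and without the block. Fits without the block that miss an array set unequal numbers from the experiments against each other. Without centring, the most similar genes shared 1, 1 and 0 of 5 with those reported.

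The 2 arrays per subset, the dim signals of Ccr7 and S1pr1 and the floor under Klf2 limit these values. A fold against a floored signal is a lower bound.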
